A study of Mus musculus with 14 samples.

Results

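The 10 inflammasome and pyroptosis genes described here are the sensors NLRP3, NLRP1B, NLRC4, AIM2 and MEFV (pyrin), the adaptor PYCARD (ASC), the inflammatory caspases CASP1 and CASP4, the pore former GSDMD and the membrane rupture gene NINJ1. They were chosen by name, as the rows with these symbols, among 24982 genes listed in the deposited count table, and all 10 were among the 13136 genes with enough reads to be tested. Each library held Ly6C- MHCII+ macrophages, sorted as live CD45+ Ly6G- CD103- CD64+ CD11b+ cells from the lamina propria of the colon and cecum of C57BL/6 mice aged 5 weeks.

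Inflammasomes are protein assemblies of the cytosol in which a sensor recognises a microbial product or a sign of cell damage and recruits, often through the adaptor ASC, the protease caspase-1. Caspase-1 matures IL-1β and IL-18 and cleaves gasdermin D, while caspase-11 (encoded by Casp4 in the mouse) cleaves gasdermin D after binding cytosolic lipopolysaccharide. The freed part of gasdermin D forms pores in the plasma membrane, through which the cytokines leave the cell, and ninjurin-1 then ruptures the membrane of the dying cell, an inflammatory death called pyroptosis. In the gut, macrophages of the lamina propria meet bacterial products constantly, and IL-10 is known for restraining their inflammatory response.

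All groups, the WT group included, carried Cdcs1, a locus that increases susceptibility to colitis. WT mice had Cdcs1 alone (5 libraries), IL10RAKO mice also lacked Il10ra (Cdcs1, Il10ra -/-; 4 libraries), DKO mice lacked Il10ra and Ccr2 (Cdcs1, Il10ra -/-, Ccr2 -/-; 4 libraries), and a single CCR2KO library came from Cdcs1, Ccr2 -/- mice. CCR2 is the chemokine receptor that monocytes use to leave the bone marrow and enter inflamed tissue. The losses are germline and therefore affect every cell of the mouse, not macrophages alone, and the labels give no sex, litter or batch. Genotypes were compared over 12 libraries (4 for each of WT, IL10RAKO and DKO), those for which the authors also deposited normalized values. WT replicate 4 and the CCR2KO library stand outside that set, entered no main test and are given separately.

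Between 12153000 and 21216468 reads were counted on genes per library. The 4 WT libraries had IL10RA at 216.8 to 379.3 CPM (reads scaled to library size, with the TMM factors of edgeR), the IL10RAKO libraries had 4.88 to 11.2 and the DKO libraries 3.41 to 7.58. CCR2 ranged from 513.3 to 701.5 CPM over WT, from 360.7 to 626.6 over IL10RAKO and from 3.92 to 6.67 over DKO libraries, so both targeted genes followed the labels in all 12 libraries. All 10 macrophage markers had reads in every library, among them CSF1R at 1996 to 4097 CPM, C1QA at 828.3 to 1954 and FCGR1 (CD64) at 76.8 to 239.7. Their levels were not even across genotypes. In the test described below, 2 of the 10 were higher in IL10RAKO than in WT, and 1 higher and 2 lower in DKO. Among all genes tested, 8.70% were higher and 7.10% lower in IL10RAKO, and 9.23% higher and 9.22% lower in DKO. CX3CR1 had 318.3 to 430.8 CPM over WT, 81.2 to 326.6 over IL10RAKO and 134.7 to 216.3 over DKO libraries. ADGRE1 had 640.6 to 884.7, 256.4 to 760.1 and 227.9 to 518.6 CPM over the same groups. Other markers went the other way: H2-AB1 had 14011 to 18402, 19777 to 28634 and 15676 to 22593 CPM. FCGR1 had 76.8 to 139.7, 116.0 to 239.7 and 100.5 to 152.3 CPM. All 10 markers summed to 21680 to 26863 CPM over WT, 28021 to 39011 over IL10RAKO and 23114 to 31096 over DKO libraries. The summed level of 6 fibroblast markers reached 294.0 to 576.6 CPM over WT against 15.0 to 53.6 over IL10RAKO and 16.1 to 66.9 over DKO libraries, and that of 7 epithelial markers reached 1013 CPM in WT replicate 3 and 2646 in WT replicate 4, against 37.2 to 210.9 in the other 11 of the 12 libraries.

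Promoter sequences are shown for the adjacent pair CASP1 and CASP4, whose relative levels are compared further on, and for NINJ1, the member with the most reads per length. Of the 10 genes, 9 had an entry in the RefSeq promoter table (GRCm38.p6), with 12 windows in all because NLRP3, NLRP1B and CASP4 have alternative starts, and GSDMD had none. Each sequence below is the 250 bases before the annotated start, read 5′ to 3′ on the strand of the gene, which is the plus strand for these 3 genes. Capitals mark matches, on either strand, to a pattern of NF-κB sites (GGG and TTTCC with any 2 bases between them). Windows for CASP1, CASP4 and NINJ1 lie at chr9:5298267-5298516, chr9:5308599-5308848 and chr13:49187279-49187528.
CASP1: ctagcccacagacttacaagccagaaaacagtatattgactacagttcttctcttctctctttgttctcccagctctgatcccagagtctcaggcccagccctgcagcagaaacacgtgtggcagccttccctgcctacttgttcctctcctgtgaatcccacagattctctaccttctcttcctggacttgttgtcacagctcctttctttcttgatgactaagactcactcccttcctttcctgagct
CASP4: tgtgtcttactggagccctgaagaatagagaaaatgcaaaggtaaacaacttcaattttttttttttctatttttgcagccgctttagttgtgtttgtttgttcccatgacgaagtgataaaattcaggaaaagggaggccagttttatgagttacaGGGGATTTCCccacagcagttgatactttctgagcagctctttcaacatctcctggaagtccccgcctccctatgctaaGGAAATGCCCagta
NINJ1: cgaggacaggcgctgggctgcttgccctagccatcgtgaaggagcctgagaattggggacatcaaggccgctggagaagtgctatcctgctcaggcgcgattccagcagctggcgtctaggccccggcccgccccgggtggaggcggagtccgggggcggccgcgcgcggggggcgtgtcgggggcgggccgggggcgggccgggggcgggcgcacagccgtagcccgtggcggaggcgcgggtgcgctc
CASP4 was the single member with a match, and it held 2, at 93 to 84 and 14 to 5 bases before the RefSeq start that ends this window (the positions -93 to -84 and -14 to -5). Counted from the other RefSeq start of CASP4, the same matches lie at -104 to -95 and -25 to -16. The gene annotation used for the positions given below starts CASP4 at 5308828 and NINJ1 at 49187485, inside the printed windows, so the second match lies within CASP4 as annotated there. This pattern occurred in 1.41% of 32851 promoter windows of the same length. No member window held TTCNNNGAA, the spacing of STAT sites (7.02% of all windows), or a pattern of interferon-stimulated response elements, GAAA and GAAA with any 2 bases between them (2.98%). A match describes letters within 250 bases and is not evidence of binding.

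In IL10RAKO compared with WT macrophages, GSDMD rose 2.21-fold, NINJ1 2.19-fold and the sensor MEFV 1.92-fold. In DKO compared with WT macrophages, GSDMD rose 2.02-fold and NINJ1 2.098-fold. The other 4 sensors, the adaptor PYCARD and both caspases did not pass the test in either comparison, and no member passed between DKO and IL10RAKO. Thus 3 of the 10 members were higher and 0 lower in IL10RAKO than in WT (edgeR quasi-likelihood test, adjusted p under 0.05 over all genes tested), and 2 were higher and 0 lower in DKO than in WT. Among all 13136 genes the same test called 15.8% between IL10RAKO and WT (8.70% higher and 7.10% lower), 18.5% between DKO and WT (9.23% higher and 9.22% lower) and 0.0457% between DKO and IL10RAKO. The median log2 fold change of the 10 members was 0.47 in IL10RAKO against WT, where the median of all genes was -0.07, and 0.31 in DKO against WT, where it was -0.06. Passing or not, all 10 log2 fold changes were above 0 in IL10RAKO, and 7 were above and 3 below 0 in DKO. Genes at the end of the pathway were not tested against those upstream. Both comparisons share the 4 WT libraries, so they are not independent of each other.

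**Figure D1:**
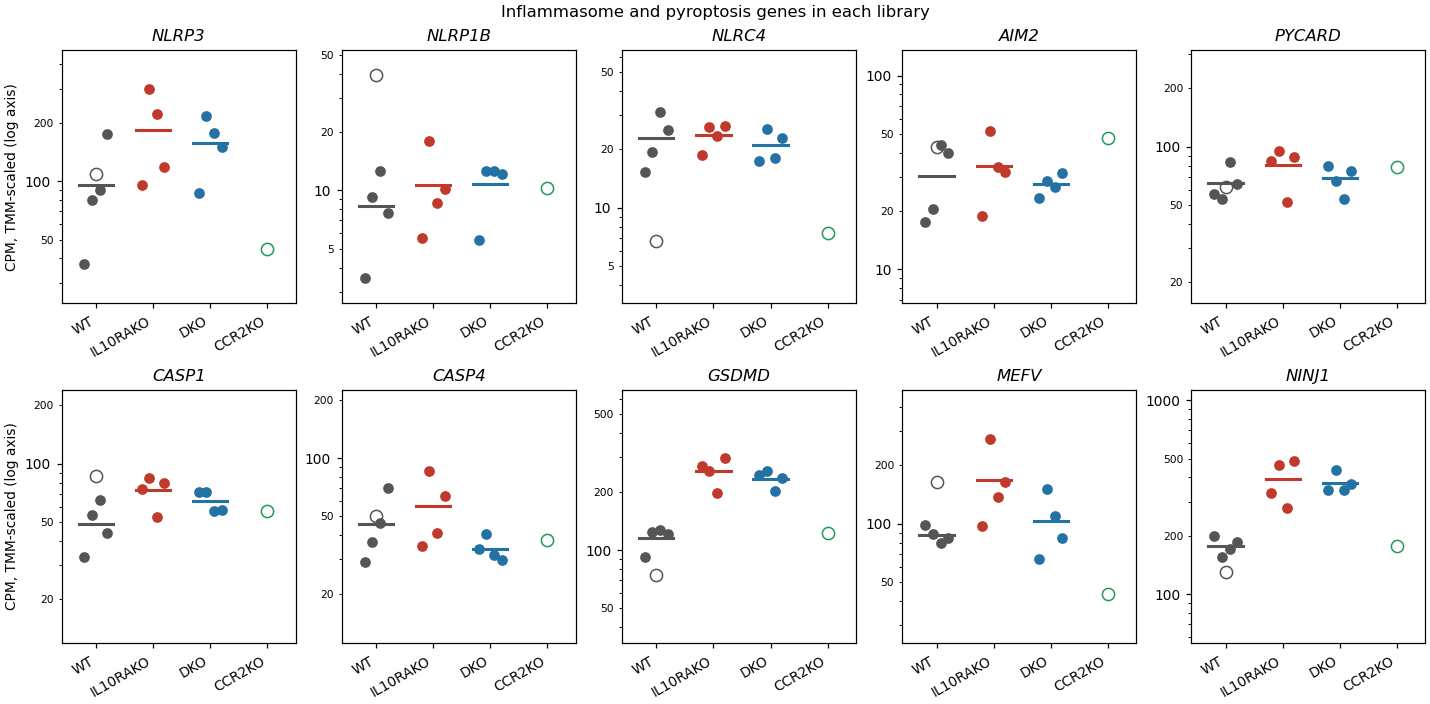
CPM of each gene in each library (log axis, a separate range per panel); filled points are the 12 libraries compared, horizontal lines their means, and open circles WT replicate 4 and the CCR2KO library. GSDMD and NINJ1 are the panels in which every filled IL10RAKO and DKO point lies above every WT point. The share of all genes separated in this way is not given here.

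GSDMD (chromosome 15, 75862327 to 75867408, plus strand, GRCm38) encodes gasdermin D. In the 4 WT libraries it was at 92.1, 123.6, 126.3 and 121.3 CPM. In IL10RAKO the 4 values were 271.7, 257.0, 197.2 and 297.3 CPM, and in DKO they were 242.7, 256.1, 201.1 and 234.4 CPM. The lowest knockout library thus stood above the highest WT library, and the IL10RAKO and DKO ranges overlapped. The WT mean was 115.8 ± 15.9 CPM, the IL10RAKO mean 255.8 ± 42.5 and the DKO mean 233.6 ± 23.5 (SD, n = 4 each). The log2 fold change was 1.14 ± 0.163 (SE) in IL10RAKO against WT (edgeR adjusted p = 0.000271) and 1.01 ± 0.163 in DKO against WT (edgeR adjusted p = 0.000601). WT replicate 4, at 74.5 CPM, and the CCR2KO library, at 122.6 CPM, also lay below every IL10RAKO and DKO library.

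NINJ1 (chromosome 13, 49187485 to 49196244, plus strand) encodes ninjurin-1. WT libraries had 198.8, 156.0, 171.2 and 186.3 CPM, the narrowest relative spread of the 10 genes in WT after MEFV. IL10RAKO libraries had 331.5, 465.6, 279.8 and 486.1 CPM, and DKO libraries 343.6, 439.4, 343.1 and 368.5 CPM. Again no knockout library fell within the WT range, and the IL10RAKO libraries were the more widely spread of the knockout groups. How large a share of all genes separates from WT as GSDMD and NINJ1 did is not given here. The log2 fold change was 1.13 ± 0.185 (SE) in IL10RAKO (edgeR adjusted p = 0.000770) and 1.07 ± 0.185 in DKO (edgeR adjusted p = 0.00103). NINJ1 was at 130.2 CPM in WT replicate 4 and 176.7 CPM in the CCR2KO library, both under the lowest IL10RAKO or DKO value. GSDMD and NINJ1 kept their calls against WT in both genotypes under all 22 alternative settings, leaving out each library included.

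Several markers of other cells moved the same way as GSDMD and NINJ1, and in bulk libraries fewer cells of a type and less RNA per cell cannot be told apart. Of 5 neutrophil markers tested, 4 were higher than WT in IL10RAKO and 4 in DKO, and the sum of all 8 listed ranged from 75.1 to 122.0 CPM over WT, 137.2 to 303.9 over IL10RAKO and 156.7 to 263.0 over DKO libraries. Most of that sum was CSF3R, which macrophages also express. LY6G (at most 0.75 CPM), MPO (at most 0.99) and ELANE (at most 0.17) were at or near 0 in all 12 libraries. S100A8 had 0 to 0.73 CPM over WT, 0.81 to 42.8 over IL10RAKO and 9.82 to 21.4 over DKO libraries. S100A9 had 0 CPM over WT, 0.505 to 40.8 over IL10RAKO and 8.00 to 16.9 over DKO libraries. CXCR2 had 0 to 0.166, 0.303 to 1.18 and 0.498 to 2.32 CPM over the same groups. RETNLG ranges overlapped, at 1.67 to 7.19, 3.64 to 8.53 and 4.10 to 7.30 CPM. Dendritic cell markers summed to 215.6 to 1028 CPM over WT, 1428 to 1860 over IL10RAKO and 1017 to 1776 over DKO libraries, with CCR7 as the main part and 3 and 2 of 6 markers higher in IL10RAKO and DKO. All 6 fibroblast markers were lower than WT in both genotypes. The 6 B and plasma cell markers summed to 511.5 to 1813 CPM over WT, 390.4 to 1067 over IL10RAKO and 477.2 to 1849 over DKO libraries. The highest of these sums in WT and in DKO was that of replicate 1. Of these 6 markers, 0 were higher or lower than WT in either genotype. The part of all these cells in the differences was not tested.

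MEFV (chromosome 16, 3707218 to 3718097, minus strand) encodes pyrin, a sensor of bacterial toxins. WT libraries lay close together, at 98.2, 88.5, 79.1 and 84.0 CPM. IL10RAKO libraries were at 97.3, 274.5, 136.8 and 164.3 CPM, and DKO libraries at 65.9, 150.8, 109.9 and 84.9 CPM. In IL10RAKO 3 of 4 libraries exceeded all 4 WT libraries, while DKO libraries lay on both sides of the WT range. The log2 fold change was 0.94 ± 0.293 (SE) in IL10RAKO against WT (edgeR adjusted p = 0.0417) and 0.23 ± 0.291 in DKO against WT (edgeR adjusted p = 0.633). This call against WT was lost without IL10RAKO replicate 2 (log2 fold change 0.61, edgeR adjusted p = 0.146), IL10RAKO replicate 4 (adjusted p = 0.0781), WT replicate 2 (0.0803), WT replicate 3 (0.0908), WT replicate 5 (0.0901) or DKO replicate 3 (0.0539). It was also lost with WT replicate 4 added, which at 164.8 CPM stood above the other WT libraries (log2 fold change 0.70, edgeR adjusted p = 0.181). With those 13 libraries 2 members, GSDMD and NINJ1, were higher in each genotype, where 7.29% and 7.43% of all genes were higher in IL10RAKO and DKO.

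NLRP3 (chromosome 11, 59541568 to 59566956, plus strand), which senses potassium efflux and other signs of membrane damage, was the most variable member in WT. Its WT values were 37.4, 80.0, 89.6 and 174.2 CPM, against 96.1, 297.7, 220.7 and 119.0 in IL10RAKO and 87.0, 217.4, 178.1 and 150.5 in DKO. The groups overlapped, since WT replicate 5 exceeded 2 of the 4 libraries in each knockout genotype. The log2 fold change was 0.95 in IL10RAKO (95% interval 0.01 to 1.88, edgeR adjusted p = 0.166) and 0.73 in DKO (-0.20 to 1.66, edgeR adjusted p = 0.272). Without WT replicate 5 the IL10RAKO value was 1.41 (edgeR adjusted p = 0.0450). The fold of the means was close to that of MEFV, and the wider spread of NLRP3 among WT libraries, from 37.4 to 174.2 CPM, stood beside its larger standard error of 0.435.

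The remaining sensors were lower in level and did not pass in either comparison with WT. NLRC4 (chromosome 17, 74425438 to 74459142, minus strand), which acts with NAIP proteins in the detection of flagellin and secretion system proteins, ranged from 15.3 to 31.2 CPM over WT, 18.6 to 26.5 over IL10RAKO and 17.4 to 25.6 over DKO libraries. Its log2 fold change was 0.05 in IL10RAKO (95% interval -0.44 to 0.54) and -0.12 in DKO (-0.61 to 0.37). AIM2 (chromosome 1, 173350879 to 173466040, plus strand), a sensor of cytosolic DNA, ranged from 17.6 to 43.7, 18.8 to 51.6 and 23.5 to 31.5 CPM over the same groups. Log2 fold changes of AIM2 were 0.16 (-0.52 to 0.84) and -0.14 (-0.82 to 0.54). NLRP1B (chromosome 11, 71153102 to 71230733, minus strand), a sensor of proteases, was the lowest member with 3.53 to 12.6, 5.70 to 18.0 and 5.57 to 12.6 CPM. It gave log2 fold changes of 0.36 (-0.52 to 1.25) and 0.38 (-0.51 to 1.26), and reads that it shares with its near-identical neighbours make its count uncertain. The 95% intervals of NLRC4 and AIM2 excluded a doubling in both genotypes, whereas that of NLRP1B did not.

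PYCARD (chromosome 7, 127989708 to 127993867, minus strand), the adaptor that links most sensors to caspase-1, spanned 53.9 to 83.5 CPM over WT, 51.6 to 95.1 over IL10RAKO and 53.5 to 79.8 over DKO libraries. Log2 fold changes were 0.31 (95% interval -0.15 to 0.76, edgeR adjusted p = 0.367) and 0.09 (-0.37 to 0.54, edgeR adjusted p = 0.821). An exon of PYCARD overlaps Gm45205 on the opposite strand, and the library kit does not keep strand, so reads of the pair cannot be told apart.

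CASP1 (chromosome 9, 5298517 to 5307265, plus strand) had 32.9, 54.5, 65.3 and 43.9 CPM in the WT libraries, 74.3, 84.9, 53.2 and 79.7 in the IL10RAKO libraries and 71.7, 71.8, 57.0 and 57.6 in the DKO libraries. IL10RAKO exceeded all WT libraries in 3 of 4 cases, and DKO in 2 of 4. Its log2 fold change was 0.57 in IL10RAKO (95% interval 0.11 to 1.03, edgeR adjusted p = 0.0887) and 0.39 in DKO (-0.06 to 0.85, edgeR adjusted p = 0.229). The IL10RAKO value passed without IL10RAKO replicate 3 (edgeR adjusted p = 0.0363) or without WT replicate 3 (adjusted p = 0.0372), in each case with a larger fold.

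CASP4 lies next to CASP1 on chromosome 9 (5308828 to 5336783, plus strand), and it is the gene with the 2 promoter matches shown above. WT libraries had 28.96, 36.8, 46.1 and 69.8 CPM of CASP4, IL10RAKO libraries 35.4, 86.1, 40.9 and 64.0, and DKO libraries 34.04, 40.7, 31.7 and 29.7. The IL10RAKO range overlapped the WT range, and the DKO libraries all fell in its lower part. Log2 fold changes were 0.32 in IL10RAKO (95% interval -0.32 to 0.95, edgeR adjusted p = 0.519) and -0.42 in DKO (-1.05 to 0.22, edgeR adjusted p = 0.367).

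The ratio of CASP4 to CASP1 reads within a library does not depend on how libraries are scaled. WT libraries had 0.880, 0.677, 0.707 and 1.59, IL10RAKO libraries 0.477, 1.01, 0.769 and 0.802, and DKO libraries 0.475, 0.567, 0.556 and 0.516. Mean log2 ratios were -0.15 ± 0.57 for WT, -0.44 ± 0.46 for IL10RAKO and -0.92 ± 0.12 for DKO (SD, n = 4 each). DKO libraries all lay below all WT libraries, a difference of -0.78 (two-sided exact permutation test, p = 0.0286, the smallest that 4 against 4 allow, and 0.0857 adjusted over the 3 comparisons). The ratio therefore did not pass after adjustment, and without WT replicate 5 the difference was -0.51. IL10RAKO differed from WT by -0.29 (exact permutation p = 0.514) and DKO from IL10RAKO by -0.49 (exact permutation p = 0.114, 0.171 adjusted). Without IL10RAKO replicate 1, which had the lowest ratio of its group (0.477), the DKO difference from IL10RAKO was -0.70. The exact permutation p was then 0.0286, unadjusted and the smallest possible with that library left out. Leaving out the library nearest to DKO separates the groups, so this p decides nothing.

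**Figure D2:**
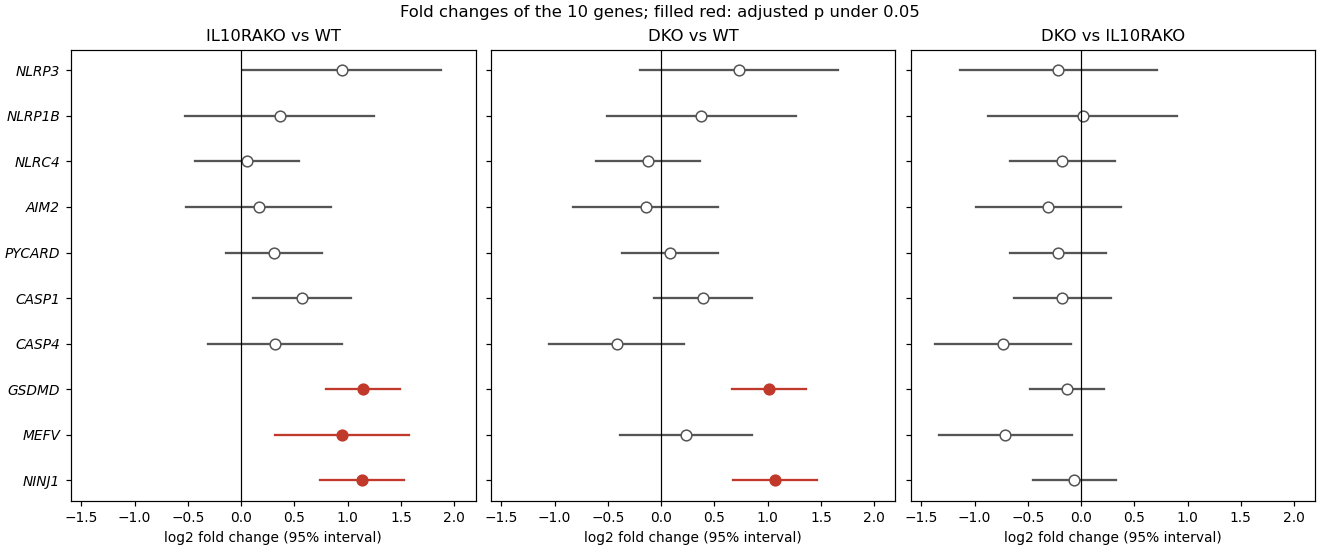
Log2 fold change of each of the 10 genes with its 95% interval in 3 comparisons; filled red points have an edgeR adjusted p under 0.05. GSDMD and NINJ1 are filled in both comparisons with WT, MEFV in IL10RAKO against WT alone, and none in DKO against IL10RAKO.

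Loss of CCR2 on top of IL10RA was compared in DKO against IL10RAKO macrophages, where 0 of 10 members passed (edgeR and DESeq2 alike) and 2, CASP4 and MEFV, had an unadjusted p under 0.05. Among all 13136 genes edgeR called 0.0457% between these genotypes, and 388 had an unadjusted p under 0.05. DESeq2 called 24 of 13100 genes. Between these groups 9 of the 10 log2 fold changes were negative, with a median of -0.20 against -0.01 for all genes. GSDMD differed by -0.13 (95% interval -0.48 to 0.21) and NINJ1 by -0.06 (-0.46 to 0.33), so changes larger than 1 on the log2 scale lay outside the intervals of both. CASP4 differed by -0.73 (95% interval -1.37 to -0.10, edgeR adjusted p = 0.9999) and MEFV by -0.71 (-1.34 to -0.08, edgeR adjusted p = 0.9999). For both genes the highest IL10RAKO library was replicate 2. The intervals of 7 members lay within 1 on either side of no change, and those of CASP4, MEFV and NLRP3 did not, so a halving of these 3 in DKO was not excluded.

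Within a genotype the same library was often the extreme one. IL10RAKO replicate 2 was the highest IL10RAKO library for 7 of 10 members (NLRP3, NLRP1B, AIM2, PYCARD, CASP1, CASP4 and MEFV), and it also had the highest S100A8 of the 12 libraries, 42.8 CPM. WT replicate 1 was the lowest WT library for 7 members, GSDMD among them, and it had the highest CCR7 of the WT libraries, 920.4 CPM. DKO replicate 2 was the highest DKO library for 7 members, GSDMD and NINJ1 included. The part of these libraries' cell make-up in the levels was not tested.

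Levels of different genes were compared as reads per kilobase of the longest coding transcript, scaled to library size as for CPM (RPKM). In WT macrophages NINJ1 was highest at 134.8 ± 14.0 RPKM, followed by GSDMD at 64.6 ± 8.89 (SD, n = 4 each). CASP1 (32.8 ± 9.28), CASP4 (31.7 ± 12.3), MEFV (28.2 ± 2.62), NLRP3 (23.7 ± 14.3), PYCARD (17.0 ± 3.49) and AIM2 (10.7 ± 4.67) came next, and each overlapped its neighbour in this order. NLRC4 (4.82 ± 1.47) overlapped AIM2 but not NLRP1B, which was lowest at 2.00 ± 0.913 RPKM. NINJ1 and GSDMD did not overlap each other or any other member in WT. They were also the highest in IL10RAKO (295.8 ± 76.4 and 142.7 ± 23.7 RPKM) and in DKO (282.8 ± 34.4 and 130.3 ± 13.1), and NLRC4 and NLRP1B the lowest in both. Dividing by all annotated exons instead moved CASP4 in WT to 12.2 RPKM, the 7th place, and for PYCARD the annotated coding transcripts differ in length (493 and 3800 bases), as they also do for AIM2 (326 to 2839), NLRP3 (676 to 4021) and GSDMD (415 to 1792), so the order depends on the transcript chosen.

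**Figure D3:**
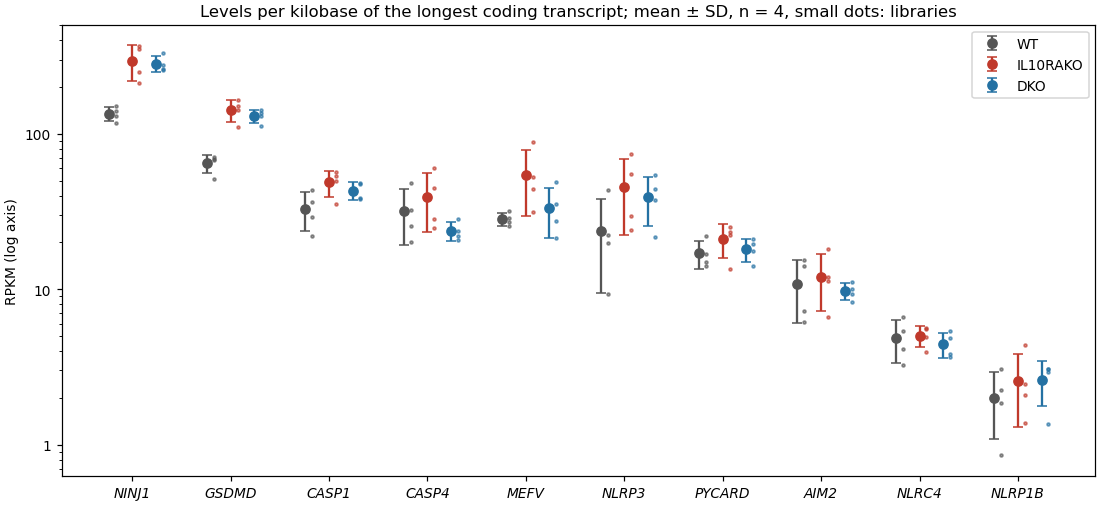
RPKM (log axis) of the 10 genes by genotype, ordered by the WT mean; large points with bars are mean ± SD of 4 libraries, small dots single libraries. NINJ1 and GSDMD stand at the top in all 3 genotypes, and NLRC4 and NLRP1B at the bottom.

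Other genes of the pathway were described from 8 lists by role, 89 gene symbols in all, of which 74 were tested. DFNA5, an older symbol of the listed gene GSDME, is among the 89 and was not tested. Of these, 21 were higher and 1 lower in IL10RAKO than in WT, 19 higher and 3 lower in DKO than in WT, and 0 passed between DKO and IL10RAKO (edgeR, with 3 at an unadjusted p under 0.05, and 0 by DESeq2). Among all genes tested, 8.70% were higher and 7.10% lower in IL10RAKO, and 9.23% higher and 9.22% lower in DKO. Between DKO and IL10RAKO 0.0457% of all genes passed, and 388 of 13136 had an unadjusted p under 0.05. Over the alternatives, added for these lists after the data had been seen, 13 to 23 were higher in each comparison with WT, 0 to 4 were lower in IL10RAKO and 1 to 5 lower in DKO. The count of higher genes fell to 13 in IL10RAKO without WT replicate 2 and with scaling by library totals without TMM. In DKO it fell to 13 with that scaling and with WT replicate 4 added.

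The released cytokines had the highest median log2 fold change of the 8 lists, 2.58 in IL10RAKO and 2.28 in DKO. Of 6 tested, 4 were higher in IL10RAKO and 4 higher and 1 lower in DKO. Mean IL1A was 131.1 ± 32.9 CPM over WT, 2835 ± 924.8 over IL10RAKO and 2775 ± 850.1 over DKO libraries (SD, n = 4 each), and it rose by 4.43 and 4.40 on the log2 scale. IL1B, whose protein caspase-1 matures, averaged 2835 ± 316.8 CPM over WT, 12501 ± 3317 over IL10RAKO and 9814 ± 1891 over DKO libraries and was higher in both genotypes (edgeR adjusted p = 9.33e-06 and 3.70e-05). Genes of the antagonists rose as well, IL1RN by 3.01 and 2.77 on the log2 scale and IL18BP, which binds IL-18, by 4.02 and 4.28. IL18, named here after its value was seen, was the gene that fell in DKO, by 0.90 on the log2 scale (edgeR adjusted p = 0.0423), with a mean of 13.9 CPM in WT and 7.50 CPM in DKO. This IL18 call was lost under 14 of 22 alternatives (adjusted p of up to 0.148), including 10 of the 12 that left out a library, all but WT replicates 1 and 2.

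Among 15 upstream activators tested, 7 were higher in IL10RAKO and 6 in DKO, and 1 was lower in each. The guanylate-binding proteins, which expose lipopolysaccharide of cytosolic bacteria to caspase-11, led this list: GBP2 rose by 4.44 and 4.63 on the log2 scale, GBP5 by 4.54 and 4.19 and GBP3 by 1.84 and 1.67 in IL10RAKO and DKO. ZBP1, a nucleic acid sensor, rose by 2.35 and 2.19. TXNIP, a binding partner of NLRP3 that was named after its value was seen, fell by 0.87 in IL10RAKO (edgeR adjusted p = 0.0246) and by 1.47 in DKO (edgeR adjusted p = 0.000777). The DKO call of TXNIP held under all 22 alternatives, and the IL10RAKO call was lost under 4, among them without WT replicate 3, IL10RAKO replicate 1 or IL10RAKO replicate 2 (adjusted p of up to 0.0753). Of 9 other sensors tested, 1 was higher in each genotype, a share near that of all genes: IFI204 in IL10RAKO (log2 fold change 0.63, edgeR adjusted p = 0.0422) and NAIP2 in DKO (0.80, edgeR adjusted p = 0.0245), the latter with near-identical paralogs. Intervals were wide for some that did not pass, such as NLRP6 in DKO, named after its value was seen (log2 fold change -2.05, 95% interval -5.17 to 1.07).

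Of 9 tested genes that were listed as inhibitors, 4 were higher in IL10RAKO and 2 in DKO. PSTPIP2 rose by 1.501 in IL10RAKO and 1.498 in DKO, and NLRX1 by 1.06 and 1.00. CARD19 rose by 0.81 and TNFAIP3 (A20) by 1.05 in IL10RAKO, and in DKO their log2 fold changes were 0.63 and 0.76 without passing. CFLAR, a regulator of caspase-8 listed with the other caspases, rose by 1.10 in IL10RAKO, and its log2 fold change in DKO was 0.79 without passing.

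Among the other gasdermins and pore genes 6 of 13 listed symbols were tested, 2 of them higher in IL10RAKO, and 3 higher and 1 lower in DKO. The necroptosis genes MLKL and RIPK3 rose by 1.79 and 0.76 in IL10RAKO and by 2.00 and 0.75 in DKO, and RIPK1 by 0.43 in DKO. GSDMC2 was lower in DKO (log2 fold change -3.78, edgeR adjusted p = 0.0370), and its levels were 0 to 24.5 CPM in WT and 376.9 CPM in WT replicate 4, the library with the highest epithelial marker sum. Of 12 membrane repair genes tested, 1 was higher in IL10RAKO, a share near that of all genes. It was CHMP2A (log2 fold change 0.66, edgeR adjusted p = 0.0309), and 0 passed in DKO, where CHMP2A was at 0.48. Of 9 genes listed as acting on gasdermin D, 0 passed in IL10RAKO and 1 in DKO, a share near that of all genes. The 1 was the palmitoyltransferase gene ZDHHC5 (log2 fold change 0.55, edgeR adjusted p = 0.0459).

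**Figure D4:**
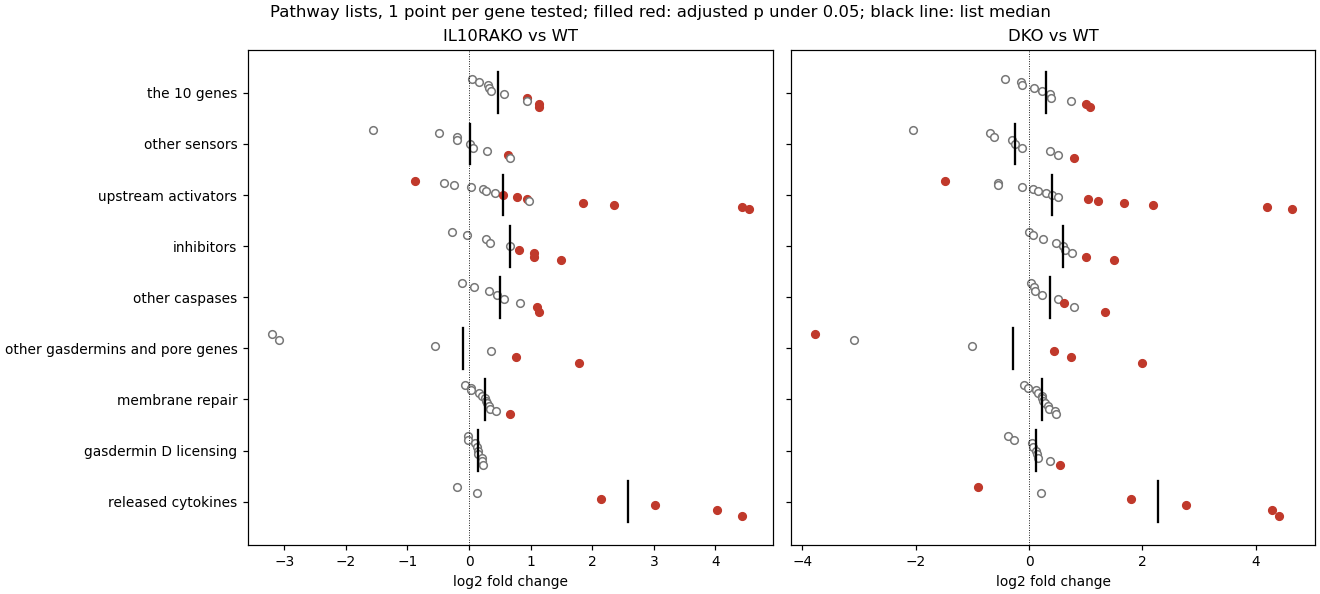
Log2 fold changes of the 10 genes and of 8 other pathway lists against WT, with 1 point per gene tested; filled red points have an edgeR adjusted p under 0.05 and black lines mark list medians. The released cytokines and the upstream activators hold the largest rises, above 4 on the log2 scale.

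Of the pathway genes named, GBP2, GBP5, GBP3, ZBP1, RIPK3, IL1A, IL18BP, IL1RN and IL1B kept their calls in both genotypes under all 22 alternatives. PSTPIP2 and MLKL lost theirs with WT replicate 4 added (edgeR adjusted p = 0.0712 and 0.0663 for PSTPIP2, 0.117 and 0.0602 for MLKL). Leaving out 1 of 12 libraries ended the call in 3 cases for NAIP2 (DKO replicates 3 and 4, WT replicate 2), for TNFAIP3 (IL10RAKO replicate 3, WT replicates 2 and 3) and for CFLAR (IL10RAKO replicate 2, WT replicates 2 and 3), and in 4 for CARD19 (IL10RAKO replicates 2 and 4, WT replicates 2 and 3). These calls were those of NAIP2 in DKO and of TNFAIP3, CFLAR and CARD19 in IL10RAKO. All 4 were also lost with scaling by library totals without TMM, and CARD19 with only the 2 genotypes compared. In these comparisons the adjusted p of the 4 genes stayed at or under 0.0975 in all alternatives. In the other genotype, where they did not pass, it reached 0.281 for NAIP2, 0.226 for TNFAIP3, 0.250 for CFLAR and 0.190 for CARD19. Calls of IFI204, NLRX1, GSDMC2, RIPK1, CHMP2A and ZDHHC5 were each lost in 5 to 9 of the 12 cases, with an adjusted p of up to 0.259, 0.316, 0.328, 0.390, 0.184 and 0.275 over all alternatives.

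Genes whose log2 CPM followed each member most closely over the 12 libraries were listed as a description, with the 2 highest Pearson correlations among the other 13126 genes tested. GSDMD was nearest to GBP8 and H2-T23 (r = 0.98 for both) and NINJ1 to CD14 (0.99) and FCRLB (0.98). The WT libraries were the lowest 4 for GSDMD and NINJ1, so these correlations also follow the split between genotypes. NLRP3 was nearest to FYCO1 (0.93) and MAPKBP1 (0.92), MEFV to ATG16L1 (0.86) and ZFP719 (0.85), CASP1 to MRPL54 (0.96) and CRIPT (0.94), and CASP4 to TCTEX1D2 (0.90) and NEURL3 (0.89). PYCARD was nearest to NDUFS5 (0.95) and GPX1 (0.94), AIM2 to SH3BP2 (0.91) and DNASE1L1 (0.90), NLRC4 to CD300C2 (0.91) and WDCP (0.89), and NLRP1B to FAM102B (0.91) and RNF24 (0.90). Members themselves were left out of the search.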

How the data were processed

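RNA was measured by RNA-seq in 14 libraries of sorted Ly6C- MHCII+ macrophages, made with the SmartSeq v4 kit. Read counts per gene were deposited by the authors, who used bcl2fastq 2.20, STAR 2.5.1b (mm10) and edgeR 3.34.0 per the labels, with gene symbols in capitals. The annotation, strand setting and handling of multiply mapped reads are not given in the sources used here. A second table deposited by the authors holds a score per gene, the pseudocounts that edgeR adjusts to a common library size, for 13338 genes in 12 libraries. It was used in 1 alternative only.

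Groups came from the genotype labels. Counts of the 12 libraries were fitted together with edgeR 4.0.16 (R 4.3.3): TMM, a minimum count of 10 in filterByExpr, the quasi-likelihood F test and Benjamini-Hochberg adjustment over 13136 genes. The study describes the 12 libraries as 4 mice per genotype. The CASP4 to CASP1 ratio used a pseudocount of 1 and an exact permutation test. Promoters came from RefSeq and lengths and positions from GRCm38. Alternatives used DESeq2 1.42.0, limma 3.58.1 with log2(pseudocount + 1), other scaling, filters, dispersions and sample sets, and each library left out. The tests were checked on simulated data.

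The members and lists were chosen with earlier results of these data known. All 10 members are named, and up to 4 genes per other list that passed against WT, smallest p first. Genes named beyond this rule are marked. Some results on single genes of the other lists are not reported here.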

Additional observations from a re-analysis of the deposited data

Results flagged for a closer look

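Of 40 groups examined on the log2(CPM + 1) scale (30 of 4 libraries, and 10 of the 5 WT libraries with replicate 4), 2 held a library far from the others, where chance marks about 5%. NLRP1B was lowest in DKO replicate 1 at 2.72, and GSDMD was lowest in WT replicate 1 at 6.54.

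The 2 libraries outside the main comparisons were set beside the 4 WT libraries for each of the 10 genes, and 4 of these 20 values lay above all 4, which by rank alone 1 more library of the WT group would do in 20% of cases. Below all 4 lay 5 values, NLRC4 in both libraries (6.70 and 7.40 CPM), GSDMD (74.5 CPM) and NINJ1 (130.2 CPM) in WT replicate 4 and MEFV in the CCR2KO library (43.2 CPM). WT replicate 4 had NLRP1B at 39.3 CPM, CASP1 at 86.9 CPM and MEFV at 164.8 CPM, and the CCR2KO library had AIM2 at 47.7 CPM. Each is a single library, and no difference was tested. WT replicate 4 also had the highest epithelial marker sum, 2646 CPM, whose part in these values was not tested.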

How the results depend on the processing

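GSDMD and NINJ1 passed against WT in both genotypes under all 22 alternatives (log2 fold changes 0.75 to 1.25 and 0.81 to 1.27). The number of members that passed was 2 to 4 in IL10RAKO against WT, 2 in DKO against WT and 0 between DKO and IL10RAKO. The MEFV call in IL10RAKO was lost under 9 of 22, among them library totals (0.62, edgeR adjusted p = 0.122) and limma on the deposited pseudocounts (0.85, limma adjusted p = 0.0562).

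Scaling by library totals without TMM moved the median of all genes to -0.38 in IL10RAKO and -0.32 in DKO against WT. Calls were then 654 higher and 2069 lower (1143 and 933 with TMM) and 749 higher and 2126 lower (1213 and 1211 with TMM). Relative to that median GSDMD was 1.20 above in IL10RAKO (1.21 with TMM), NINJ1 1.19 (1.20) and MEFV 1.01 (1.01). This scaling turned the sign in IL10RAKO against WT for NLRC4 (-0.27), AIM2 (-0.16), PYCARD (-0.021), CASP4 (-0.015) and ZDHHC5 (-0.075), in DKO against WT for PYCARD (-0.17) and MEFV (-0.027), and in DKO against IL10RAKO for NINJ1 (0.0070). Adding WT replicate 4 turned NLRP1B (-0.47 in IL10RAKO and -0.45 in DKO), and in DKO NLRC4 (0.094) and MEFV (-0.014). None of these passed with TMM in the comparison named.

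Leaving out each library in turn, values ran through 0 in IL10RAKO against WT for NLRP1B (-0.0097 to 0.65), NLRC4 (-0.092 to 0.25) and AIM2 (-0.10 to 0.39), in DKO against WT for NLRC4 (-0.27 to 0.072), AIM2 (-0.33 to 0.087) and MEFV (-0.0018 to 0.40), and in DKO against IL10RAKO for NLRP3 (-0.42 to 0.12), NLRP1B (-0.19 to 0.39) and NINJ1 (-0.18 to 0.059). The CASP4 to CASP1 log2 ratio differed by -0.92 to -0.51 between DKO and WT and by -0.70 to -0.34 between DKO and IL10RAKO.

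No paired analysis was possible because the replicate numbers were given in accession order and name libraries without pairing them. The intervals of NLRP3 and NLRP1B against WT include both no more than a slight change and a doubling.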
